A study of Mus musculus with 3 samples.

Results

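The genes described here are 36 regulators and markers of the mesoderm fates that lie beside blood: heart, paraxial mesoderm with its related mesenchyme, and the primitive streak. They were chosen by name as a set of lineage genes, with earlier results of these data known, and are 36 of 22372 protein-coding genes in the GENCODE annotation of mouse build mm9. A binding site of the co-repressor ETO2 was given to a gene when its summit lay inside the gene or up to 20 kb beyond either end, or when the nearest protein-coding start site was that of the gene. Of the 3192 ETO2 sites merged here from both replicate peak lists, 26 fell to these genes, and 16 of the 36 genes had at least 1 site. By textbook role 15 genes were grouped as cardiac (Foxc1, Hand1, Hand2, Isl1, Mef2c, Myocd, Nkx2-5, Tbx1, Tbx2, Tbx3, Tbx5, Tbx18, Tbx20, Wnt5a and Zfpm2) and 16 as paraxial, a group that takes in somite, head, limb and other mesenchyme genes (Ctgf, Foxc2, Irx3, Irx5, Meox1, Meox2, Mesp2, Msgn1, Osr1, Pax3, Pdgfra, Prrx1, Six2, Tbx6, Tcf15 and Twist1). The other 5 were grouped as primitive streak genes (Eomes, Gsc, Mesp1, Mixl1 and T). Several of them act in more than 1 lineage, so the groups are a convenience of description.

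Mesoderm leaves the primitive streak under T-box and homeobox factors such as T, Eomes and Mixl1, and is then divided among heart, somite, blood and vessel fates. Cells that carry FLK1, the VEGF receptor encoded by Kdr, include progenitors of blood, vessel and heart. ETO2, the product of Cbfa2t3, does not bind DNA by itself and is brought to chromatin by factors such as the SCL complex, whose GATA partner reads the motif WGATAR and whose bHLH dimer reads CANNTG.

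ETO2 occupancy was measured by chromatin immunoprecipitation with sequencing (ChIP-seq) in FLK1+ mesoderm isolated from embryoid bodies of wild type C57Bl/6 X Sv129 mouse ES cells, with an antibody against ETO2. The 3 samples comprise 2 ETO2 ChIP libraries, here replicate 1 and replicate 2, and 1 input, which enters only through the replicate 1 values. The sample labels give day 4 of differentiation and the series text gives day 3.5. The series text speaks of independent differentiations, but both peak lists carry the same ChIP number in their names, so their independence was not established here. All samples are untreated and of 1 genotype, so the contrasts below are between genes and not between conditions. Peak lists hold no expression, and the FLK1+ identity of the cells could not be checked against markers.

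Replicate 1, called against the input, held 2335 peaks with 12 to 206 ChIP fragments at the summit (median 27). Replicate 2, called without an input, held 1873 peaks with 18 to 236 fragments (median 35). Overlapping peaks were merged into 3192 sites, of which 1002 were called in both replicates, 1332 in replicate 1 only and 858 in replicate 2 only. A site missing from a list was not called there, which is not a measured value of 0. Fold enrichments are the authors' ratios of ChIP fragments, scaled in replicate 1, to local background at the summit. Because the controls differ, they are not compared between the lists. With 2 libraries there is no spread for a single site, and all intervals cover counting error only.

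The sequences under the summits are shown for the 4 sites called in both replicates and for the strongest replicate-specific site within 20 kb of each other member gene that had one. Each is the 100 bp window centred on the summit, on the plus strand of mm9, and capitals mark WGATAR matches on either strand (A or T, then GATA, then A or G).
Tbx20 (both, chr9:24652856-24652955): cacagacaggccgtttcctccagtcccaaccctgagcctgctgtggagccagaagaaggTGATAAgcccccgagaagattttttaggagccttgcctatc
Tbx3 (both, chr5:120101685-120101784): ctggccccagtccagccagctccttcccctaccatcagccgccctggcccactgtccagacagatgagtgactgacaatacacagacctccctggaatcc
Foxc2 (both, chr8:123839698-123839797): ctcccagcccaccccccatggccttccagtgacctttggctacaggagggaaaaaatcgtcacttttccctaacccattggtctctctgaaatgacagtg
Irx3 (both, chr8:94239815-94239914): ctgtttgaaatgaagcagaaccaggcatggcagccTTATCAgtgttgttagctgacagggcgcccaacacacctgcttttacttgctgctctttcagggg
Tbx5 (replicate 1 only, chr5:120325582-120325681): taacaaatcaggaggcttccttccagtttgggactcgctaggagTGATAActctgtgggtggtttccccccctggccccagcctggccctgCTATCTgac
Zfpm2 (replicate 1 only, chr15:40656590-40656689): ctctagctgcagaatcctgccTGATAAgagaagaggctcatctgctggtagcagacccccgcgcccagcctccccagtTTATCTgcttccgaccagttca
Nkx2-5 (replicate 1 only, chr17:26987759-26987858): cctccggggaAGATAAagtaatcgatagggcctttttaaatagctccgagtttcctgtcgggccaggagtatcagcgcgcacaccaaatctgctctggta
Hand1 (replicate 1 only, chr11:57661081-57661180): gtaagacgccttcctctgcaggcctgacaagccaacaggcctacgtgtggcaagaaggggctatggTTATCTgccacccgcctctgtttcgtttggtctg
Tcf15 (replicate 1 only, chr2:151981210-151981309): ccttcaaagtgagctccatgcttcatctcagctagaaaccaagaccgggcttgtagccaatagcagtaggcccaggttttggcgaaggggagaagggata
Pdgfra (replicate 1 only, chr5:75552542-75552641): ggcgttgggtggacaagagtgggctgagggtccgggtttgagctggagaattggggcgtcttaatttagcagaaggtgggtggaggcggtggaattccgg
Foxc1 (replicate 1 only, chr13:31899164-31899263): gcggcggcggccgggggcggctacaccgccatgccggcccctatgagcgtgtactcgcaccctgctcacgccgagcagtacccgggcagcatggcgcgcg
Tbx2 (replicate 1 only, chr11:85631960-85632059): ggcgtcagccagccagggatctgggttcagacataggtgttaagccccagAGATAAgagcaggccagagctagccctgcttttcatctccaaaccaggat
Pax3 (replicate 2 only, chr1:78178590-78178689): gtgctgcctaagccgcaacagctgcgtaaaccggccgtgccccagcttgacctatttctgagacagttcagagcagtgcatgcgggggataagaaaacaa

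Of these 13 windows, those of Tbx20, Irx3, Nkx2-5, Hand1 and Tbx2 held 1 WGATAR match and those of Tbx5 and Zfpm2 held 2. The windows of Tbx3, Foxc2, Tcf15, Pdgfra, Foxc1 and Pax3 held none. The Foxc1 window, inside the coding exon of that gene, had a GC content of 76%, the highest of all the member sites.

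To find whether these neighbouring fates were sites of ETO2 binding, the share of member genes with a site was set beside that of all protein-coding genes. A site was present at 16 of 36 members (44.4%, 95% Wilson interval 29.5 to 60.4), compared with 13.5% of all protein-coding genes. Developmental regulators tend to lie in gene-poor regions, which leaves more room for a site. The territory of a gene, meaning all bases at which a summit would be assigned to it, had a median of 223 kb for the members, and 23 of the 36 were among the widest territories of the genome (the top 2 of 10 classes of equal size). Across those 10 classes the share of genes with a site rose from 5.41% in the narrowest to 28.6% in the widest. Genes of the same classes as the members had a site in 20.2% of cases, below the lower bound of the member interval. This comparison, like those of intervals below, is a description and not a test. Genes are not replicates, and the members were chosen with earlier results of these data known. The paper names Foxc1, Wnt5a, Irx3, Ctgf and Six2 among genes bound by ETO2, and of these only Six2 had no site here.

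The same share for sites called in both replicates was 4 of 36 (11.1%, interval 4.41 to 25.3), beside 5.1% of all genes and 8.03% of genes of like territory, both of which lie within the interval. In the replicate 1 list 15 of 36 members had a site (41.7%, 27.1 to 57.8), beside 11.2% of all genes and 16.5% of genes of like territory. In the replicate 2 list only 6 of 36 did (16.7%, 7.87 to 31.9), beside 7.61% and 12.4%. Of these 3 shares, only that of the replicate 1 list had an interval wholly above the value for genes of like territory. Because the libraries and the way peaks were called both differ between the lists, their parts in that difference cannot be told apart. Counting only sites inside a gene or up to 20 kb beyond its ends, 10 of 36 members had one (27.8%, 15.8 to 44.0), beside 10.5% of all genes and 13.1% of genes in the same territory classes. With territories measured under that narrower rule, the value for genes of like territory was 9.60%. Of these 10 members, 1 had such a site called in both replicates (2.78% of the 36). That share was 3.84% of all genes and 3.38% of genes of like territory under that rule.

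The counts differed between the groups, with intervals that overlap one another. A site was assigned to 10 of 15 cardiac genes (66.7%, 41.7 to 84.8), to 6 of 16 paraxial genes (37.5%, 18.5 to 61.4) and to 0 of 5 primitive streak genes (0 to 43.4). Genes of like territory gave 22.7%, 20.1% and 12.7% for the respective groups. Only the cardiac interval lay wholly above its territory value, and this rested on replicate 1. In the replicate 2 list 2 of 15 cardiac genes had a site (13.3%, 3.74 to 37.9), beside 14.4% of genes of like territory, and 4 of 16 paraxial genes did (25%, 10.2 to 49.5), beside 12.2%. The cardiac genes had the widest territories (median 365 kb), followed by the paraxial (219 kb) and the primitive streak genes (53.3 kb). Sites called in both replicates were found at 2 cardiac genes, 2 paraxial genes and no primitive streak gene. The paper had already placed the streak genes Gsc, Mixl1 and T among genes occupied by SCL and RYBP without ETO2. Their lack of a site is therefore not a separate finding.

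**Figure D1:**
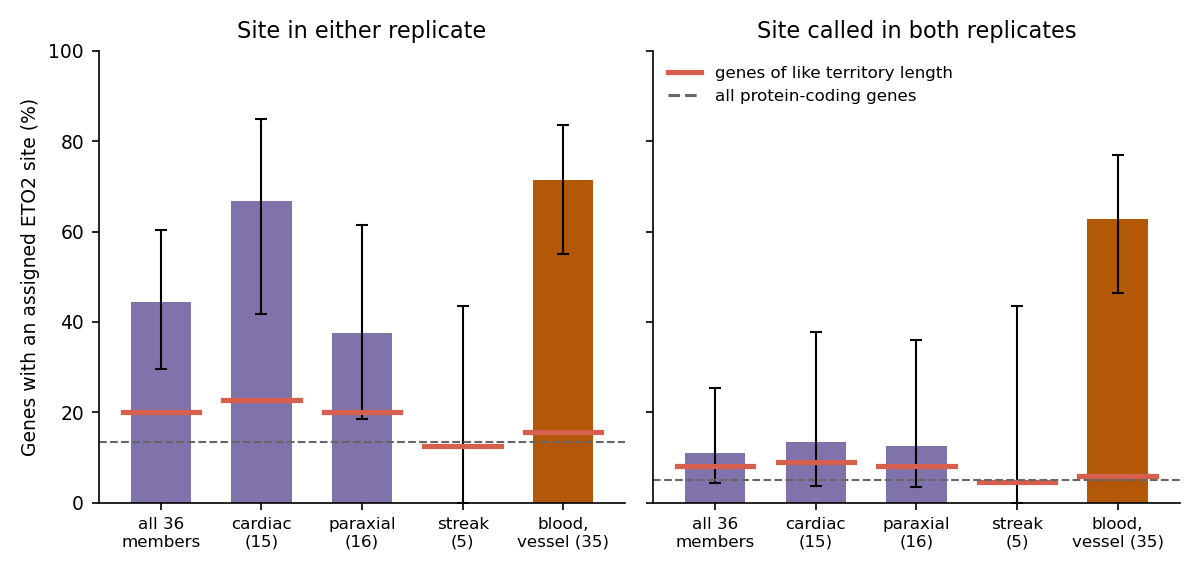
Percentage of genes with an assigned ETO2 site (vertical axis) in either replicate (left) and called in both replicates (right), for all members, the 3 member groups and a list of 35 blood and vessel genes. Black bars are 95% Wilson intervals, red lines the share of genes of like territory length and the dashed line the share of all protein-coding genes. In either replicate the cardiac bar (66.7%) is the tallest among member groups, whereas for sites called in both replicates the 2 groups with sites stand at 13.3% and 12.5%, beside 62.9% of the blood and vessel genes.

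By length of DNA, the 26 sites in 10.2 Mb of member territory gave 2.54 sites per Mb (exact Poisson interval 1.66 to 3.72), compared with 1.25 per Mb of the genome, a ratio of 2.03. For sites called in both replicates the ratio was 0.997, with 4 sites observed and 4.01 at the genome density. It was 3.0 for sites called in replicate 1 only (16 sites) and 1.75 for those called in replicate 2 only (6 sites). Cardiac and paraxial territory held about the same density, with 2.66 sites per Mb (1.52 to 4.31) and 2.62 per Mb (1.26 to 4.83). What differed was the list they came from. Of 16 cardiac sites 13 were called in replicate 1 only, 2 in both and 1 in replicate 2 only, whereas of 10 paraxial sites 3 were called in replicate 1 only, 2 in both and 5 in replicate 2 only. Single genes weigh on these counts. Tbx3 alone held 6 of the cardiac sites, 4 of them in replicate 1 only. Foxc2 held 3 of the paraxial sites, 2 of them in replicate 2 only, and these depend on the annotation, as described below. The difference between the groups was not tested, since the genes were chosen with earlier results of these data known. In the 0.431 Mb of primitive streak territory the genome density would give 0.538 sites, so a lower density than elsewhere was not detectable there.

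**Figure D2:**
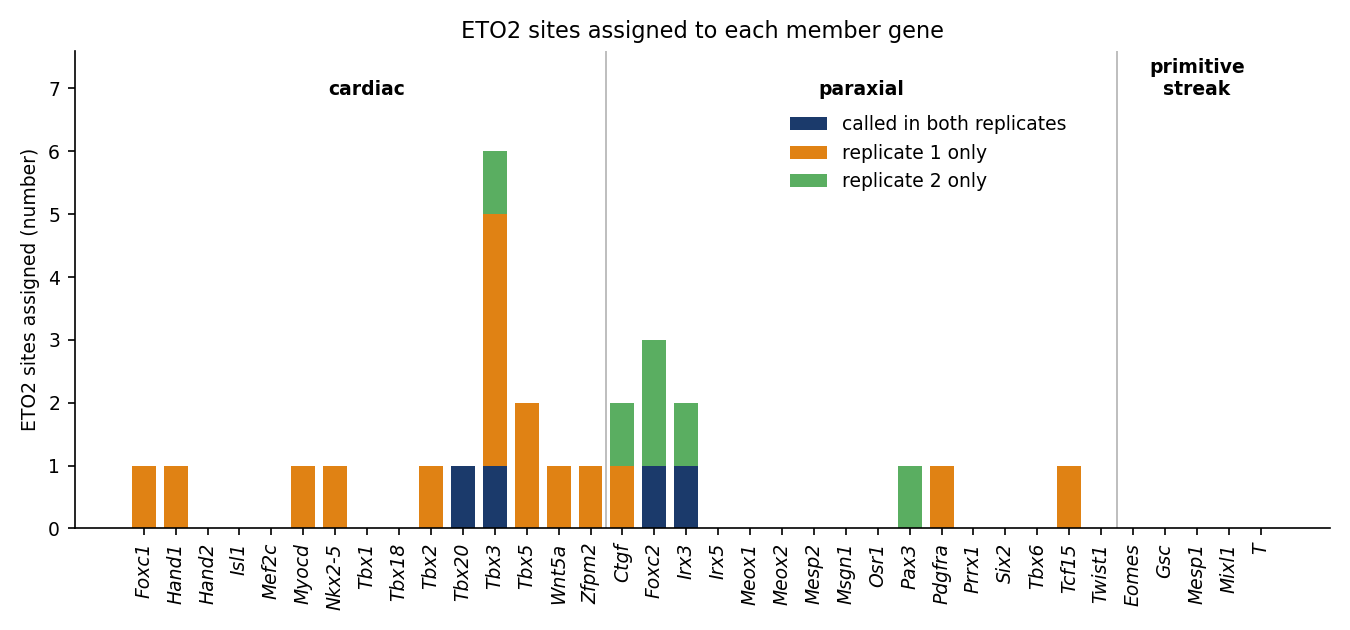
Number of ETO2 sites assigned to each of the 36 genes (vertical axis), stacked by the replicates in which the site was called and ordered by group. Tbx3 has 6 sites, Foxc2 has 3, Tbx5, Ctgf and Irx3 have 2, another 11 genes have 1, and 20 genes, the 5 primitive streak genes included, have none.

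The 4 sites called in both replicates lay at Tbx20, Tbx3, Irx3 and Foxc2. Tbx20, a T-box factor of the heart chambers, had the strongest replicate 1 signal of all the member sites. That summit lay 74.2 kb upstream of the gene in intergenic DNA (chr9:24652906), with a fold enrichment of 7.27 from 48 fragments in replicate 1 (−log10 q 31.0) and of 4.77 from 30 fragments in replicate 2 (−log10 q 9.05). The summits of the replicates were 12 bp apart. The window held the TGATAA printed above.

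Tbx3 encodes a T-box repressor of the conduction system and of limb and other tissues. Its shared site lay 18.9 kb upstream (chr5:120101735), in an intron of the non-coding transcript Gm16064. Here replicate 2 gave the highest fold enrichment of any member site in that list, 8.08 from 49 fragments (−log10 q 26.1), and replicate 1 gave 4.14 from 27 fragments (−log10 q 9.10). The summits were 28 bp apart, and the window held no WGATAR but did hold CANNTG. It was the only shared site within 20 kb of the member to which it was assigned.

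Irx3, an Iroquois homeobox gene, had its shared site 85.7 kb downstream in intergenic DNA (chr8:94239865). Its fold enrichment was 6.78 from 38 fragments in replicate 1 (−log10 q 22.6) and 3.77 from 33 fragments in replicate 2 (−log10 q 7.0), with summits 10 bp apart. A WGATAR match on the minus strand lay in the window. Tbx20, Tbx3 and Irx3 thus had summits that nearly coincided in the 2 lists.

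Foxc2, a forkhead factor of somites and vessels, had a shared region 199.7 kb downstream (chr8:123839748), in an intron of Gm20388, a long gene model that runs across its neighbours. Replicate 1 gave a fold enrichment of 4.67 from 28 fragments (−log10 q 11), and replicate 2 had 2 peaks there, the leading one at 2.98 from 27 fragments (−log10 q 3.28). The leading summits were 278 bp apart, so this is the loosest of the shared sites, and the window held no WGATAR. The tie to Foxc2 depends on the annotation. The neighbouring gene Foxl1 is listed as a pseudogene in this GENCODE release and as protein coding in RefSeq, and with RefSeq coding genes added as start sites none of the 3 Foxc2 sites stayed with Foxc2. Members with a site then numbered 15, and those with a shared site 3.

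Among the cardiac genes, Nkx2-5 encodes a homeobox factor of early heart progenitors. It had 1 site, 9.30 kb upstream of the gene (chr17:26987809), with a fold enrichment of 5.06 from 37 fragments (−log10 q 16.3), called in replicate 1 only. This was the highest fragment count among replicate-specific member sites of that list. No replicate 2 summit lay within 2597 kb of the Nkx2-5 start.

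Hand1 encodes a bHLH factor of heart and extraembryonic mesoderm. Its assigned site lay 14.8 kb upstream (chr11:57661131), with a fold enrichment of 4.99 from 19 fragments (−log10 q 7.95) in replicate 1 only. Just outside the 20 kb limit, and so not counted for Hand1, lay a site called in both replicates 33.9 kb upstream (chr11:57680224). It had fold enrichments of 8.34 from 49 fragments in replicate 1 and 6.36 from 44 in replicate 2, and a replicate 1 peak 32.0 kb upstream had 9.53 from 37 fragments. Both were stronger in replicate 1 than any site assigned to a member. They went to Gm11003, a gene model whose start lies between them and Hand1.

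Tbx5, a T-box factor of the heart and forelimb, had 2 adjacent intronic sites in replicate 1 only. One lay 41.0 kb into the gene (chr5:120325632), with a fold enrichment of 5.89 from 30 fragments (−log10 q 15.9) and the 2 WGATAR matches shown above. Another lay 40.5 kb into the gene (chr5:120325193), with 4.71 from 17 fragments (−log10 q 6.24) and no WGATAR. The first was the strongest replicate-specific member site of that list.

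Zfpm2, which encodes FOG2, a cofactor of GATA4 in the heart, had an intronic site 73.3 kb into the gene (chr15:40656640), with a fold enrichment of 5.75 from 22 fragments (−log10 q 11.1) in replicate 1. It was the only member window in which CTG preceded GATA by 8 to 10 bases, an arrangement like that read by complexes of SCL and a GATA factor.

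Tbx2, a T-box repressor of the atrioventricular canal, had a replicate 1 site 14.0 kb upstream (chr11:85632010), inside an intron of Bcas3. The fold enrichment was 3.77 from 33 fragments (−log10 q 9.84). Beyond the 20 kb limit, a replicate 1 summit 28.3 kb upstream was assigned to Bcas3 (4.93 from 26 fragments). Summits at 53.3 kb (replicate 1, 3.30 from 14 fragments) and 56.4 kb (replicate 2, 4.36 from 29 fragments) were assigned to the neighbouring T-box gene Tbx4. The assignments in this T-box pair therefore turn on the rule for the nearest start.

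Foxc1, a forkhead factor of heart field and head mesenchyme, had its site 0.699 kb into the gene (chr13:31899214), the only member site in a coding exon. The fold enrichment was 3.78 from 19 fragments (−log10 q 5.08), in replicate 1 only. The nearest replicate 2 summit lay 1722 kb from the start of Foxc1.

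Myocd, a coactivator of serum response factor in cardiac and smooth muscle, had the weakest enrichment of the replicate 1 member sites. It lay 25.9 kb upstream (chr11:65109353), with 2.55 from 24 fragments (−log10 q 2.79). The local background there was 12.0, the highest of the replicate 1 member sites, on a scale where each ChIP fragment counts as 1.34. The window nevertheless held WGATAR and CANNTG. Wnt5a, a ligand of non-canonical Wnt signalling, had a replicate 1 site 86.1 kb upstream (chr14:29231848), inside an intron of Erc2, with 4.81 from 19 fragments (−log10 q 7.56) and no WGATAR.

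Tbx3 had 5 further sites, 4 in replicate 1 only and 1 in replicate 2 only, all upstream. The replicate 1 sites lay 48.4, 81.6, 186.4 and 271.8 kb from the start, with fold enrichments of 3.74 to 5.09 and 16 to 23 fragments. The strongest of them was that at 186.4 kb (chr5:119934309), with 5.09 from 22 fragments (−log10 q 9.53). The replicate 2 site, 421 kb upstream (chr5:119699533), had 6.14 from 37 fragments (−log10 q 15.2). WGATAR was present in the one at 81.6 kb alone. With 6 sites in a territory of 642 kb, Tbx3 had more sites than any other member, and only the one at 18.9 kb was called in both replicates.

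**Figure D3:**
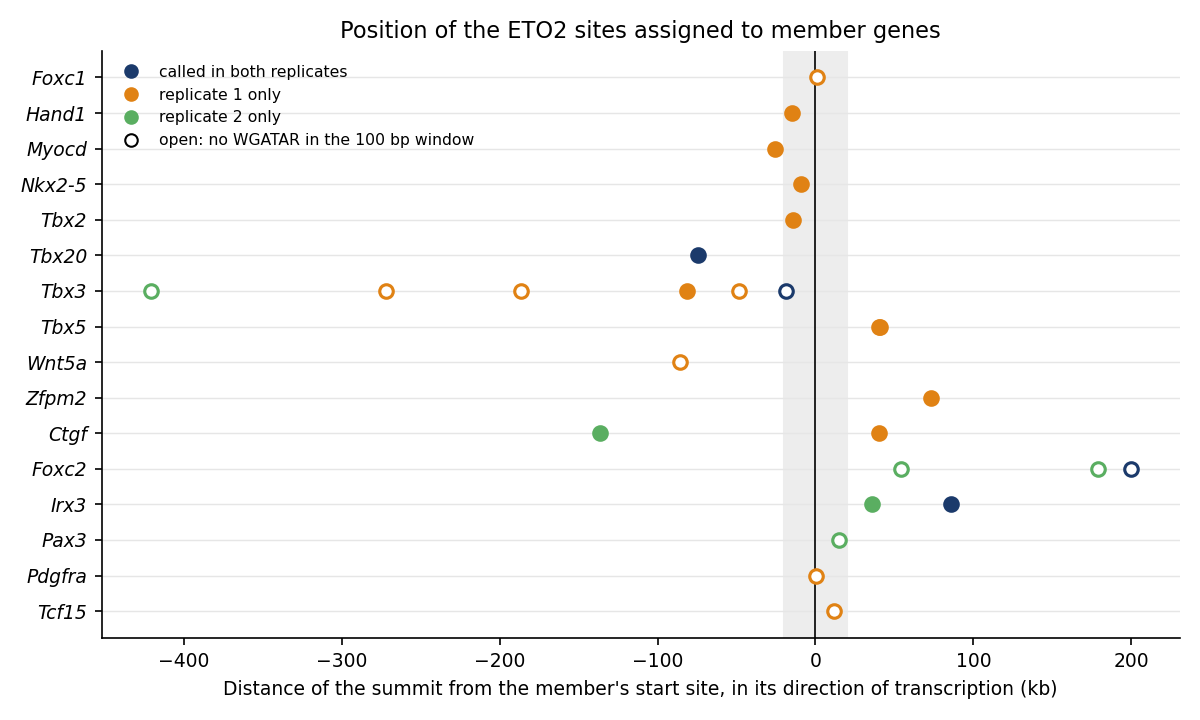
Distance in kb from the member's start site (horizontal axis, negative upstream) of each of the 26 sites, with 1 row per gene. Colour gives the replicates in which the site was called, filled circles hold WGATAR in the 100 bp window, open circles do not, and the grey band marks 20 kb to each side. The Tbx3 sites spread over 421 kb upstream, and the 2 Tbx5 sites, 1 with WGATAR and 1 without, overlap in the drawing.

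Among the paraxial genes, Pdgfra encodes a PDGF receptor of paraxial and cardiac mesoderm that is used with FLK1 to divide mesoderm. Its site was the nearest of all to a start, 0.401 kb into the gene in an intron (chr5:75552592), with a fold enrichment of 4.08 from 19 fragments (−log10 q 5.83) in replicate 1 only. Tcf15, the bHLH factor paraxis of the somite, had a site 12.0 kb from its start, beyond its 3′ end (chr2:151981260), with 4.19 from 18 fragments (−log10 q 5.95) in replicate 1 only. Neither window held WGATAR. In replicate 2 the nearest summits were 246 kb from Pdgfra and 94.8 kb from Tcf15.

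Pax3, a paired-box factor of the dermomyotome and neural crest, was the only member with its sole site in replicate 2. The summit lay in an intron, 14.8 kb into the gene (chr1:78178640), with a fold enrichment of 3.50 from 25 fragments (−log10 q 4.34). The nearest replicate 1 summit was 655 kb from the start of Pax3.

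Ctgf, the matricellular protein CCN2, had 2 sites, 1 in each list. The replicate 1 site lay 40 kb downstream of the start (chr10:24355230), with 5.09 from 22 fragments (−log10 q 9.53). The replicate 2 site, a separate one on the other side of the gene, lay 136.6 kb upstream (chr10:24178641), with 3.88 from 23 fragments (−log10 q 4.82). Both held WGATAR. When the starts of all transcripts were used, the replicate 1 site went to the neighbouring gene Enpp1 and 1 site was left.

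Irx3 had a second site, 36 kb downstream in replicate 2 only (chr8:94289519), with 4.04 from 25 fragments (−log10 q 5.75) and WGATAR. Foxc2 had 2 more in replicate 2 only, 54.2 and 178.7 kb downstream, with fold enrichments of 2.98 and 3.77, 24 and 34 fragments and no WGATAR. Like the shared Foxc2 site, these depend on the reading of Foxl1.

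The remaining 20 genes had no site in either list. None of the 5 primitive streak genes had one, although Mixl1, a homeobox factor of the streak, had summits at 126.6 kb in replicate 1 and 153.9 kb in replicate 2, beside Parp1 and BC031781. Gsc, a homeobox gene of the organizer, was 365 and 1265 kb from the nearest summits. Eomes, a T-box factor of streak and cardiac mesoderm, was 438 and 502 kb away. Mesp1, a bHLH factor of early cardiac mesoderm, had its nearest summit at 435 kb in both lists. T, brachyury, was 1452 and 1154 kb away. The paraxial gene Mesp2, which neighbours Mesp1, shared its nearest site, in an Abhd2 intron 452 kb away.

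Of the cardiac genes, Hand2, Isl1, Mef2c, Tbx1 and Tbx18 had no site. Tbx1, of the pharyngeal and second heart field mesoderm, was the nearest of them, with a site called in both replicates 126.8 kb away in an intron of Txnrd2. Isl1, a LIM homeobox factor of the second heart field, and the MADS-box gene Mef2c had their nearest sites at 1150 and 1124 kb, each called in both lists. Hand2, partner of Hand1, was 396 kb from a summit in replicate 1 and 2398 kb in replicate 2, and Tbx18, of the epicardium, was 2507 and 2704 kb away. A wide territory did not go with a site at each gene: Mef2c had the widest of all the members, at 1230 kb, and none.

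The paraxial genes without a site were Irx5, Meox1, Meox2, Mesp2, Msgn1, Osr1, Prrx1, Six2, Tbx6 and Twist1. Six2, a homeobox gene of nephric and head mesenchyme, was nearest, at 186 kb in replicate 1. Its lack of a site depends on the rule: with 1 start site per gene Six2 had 1 site, and members with a site numbered 17. Meox2, a homeobox gene of somites and vessels, was farthest, at 3815 kb in replicate 1 and 5007 kb in replicate 2. The segmentation and presomitic factors Tbx6 and Msgn1 lay 353 and 1279 kb from the nearest replicate 1 summit, and 1309 and 1279 kb from the nearest in replicate 2.

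Across all 36 genes the median distance to the nearest replicate 1 summit was 269.6 kb, beside 349 kb for all protein-coding genes, and to the nearest replicate 2 summit 477 kb beside 555 kb. The cardiac genes had a median of 73.3 kb in replicate 1 and of 1124 kb in replicate 2. For the paraxial genes the medians were 430 and 419 kb, and for the primitive streak genes 435 and 502 kb. The cardiac median was thus below the all-gene median in replicate 1 and above it in replicate 2. More than 1 Mb from any summit were 8 of 36 members in replicate 1 (22.2%, beside 22.4% of all genes) and 16 of 36 in replicate 2 (44.4%, beside 31.9%).

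**Figure D4:**
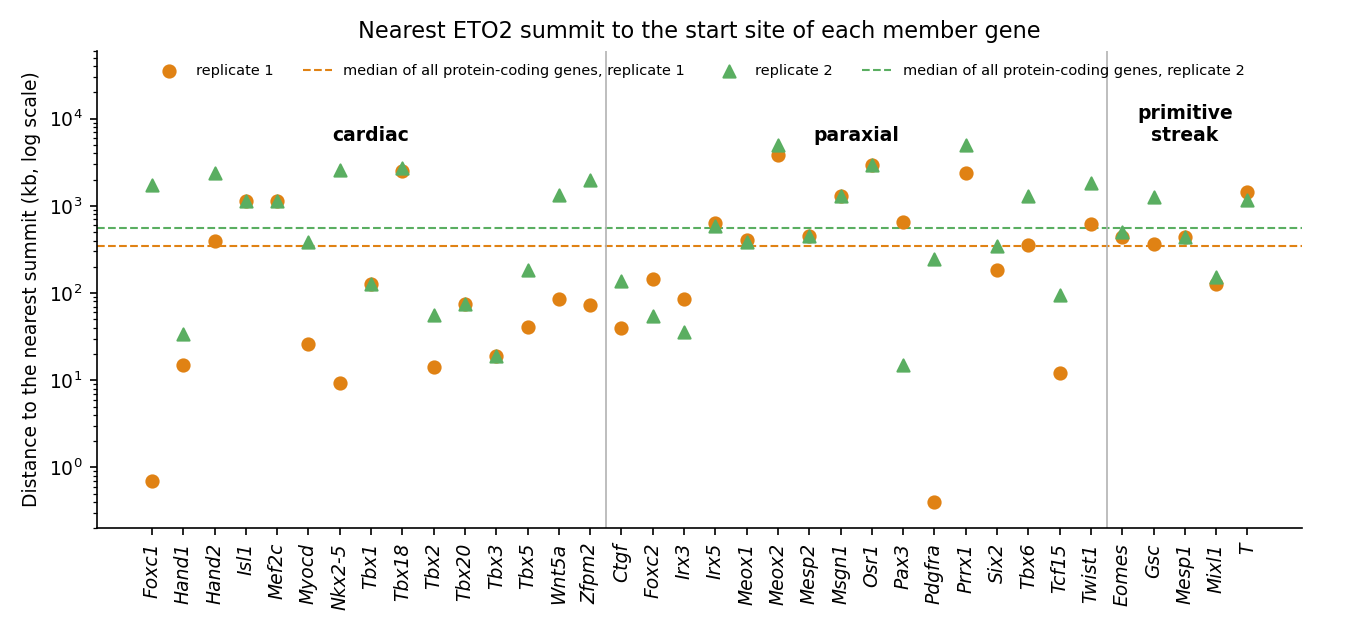
Distance in kb, on a log scale, from the start of each of the 36 genes to the nearest summit of replicate 1 (circles) and replicate 2 (triangles), with the medians of all protein-coding genes as dashed lines. Cardiac genes such as Foxc1, Nkx2-5, Zfpm2 and Wnt5a have a near summit in replicate 1 and none within 1337 kb in replicate 2, and no primitive streak gene has a summit closer than 126.6 kb.

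The member sites were mostly below the medians of their lists. The 20 replicate 1 peaks had fold enrichments of 2.55 to 7.27 (median 4.69, against 5.24 for the list) and 16 to 48 fragments (median 22, against 27), and 4 of the 20 reached the list median of fold enrichment. In replicate 2 the 11 peaks had 2.96 to 8.08 (median 3.77, against 4.85) and 23 to 49 fragments (median 27, against 35), and 2 of the 11 reached the list median. The peaks that reached it belonged to Tbx20, Irx3, Tbx5 and Zfpm2 in replicate 1 and to Tbx3 in replicate 2. Peaks called in both replicates had higher medians in each list (6.83 against 4.64 for replicate 1-only peaks, and 5.38 against 4.36 for replicate 2-only peaks), and few member sites were among them. Against other replicate 1-only peaks, 8 of the 16 member peaks of that kind reached the median (4.45 for the members, 4.64 for all), and 1 of 6 did among replicate 2-only peaks (3.82 and 4.36). Sites called in both replicates made up 15.4% of member sites (4 of 26, 6.15 to 33.5), beside 31.4% of all sites. Replicate 1 only made up 61.5% (42.5 to 77.6), beside 41.7%.

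**Figure D5:**
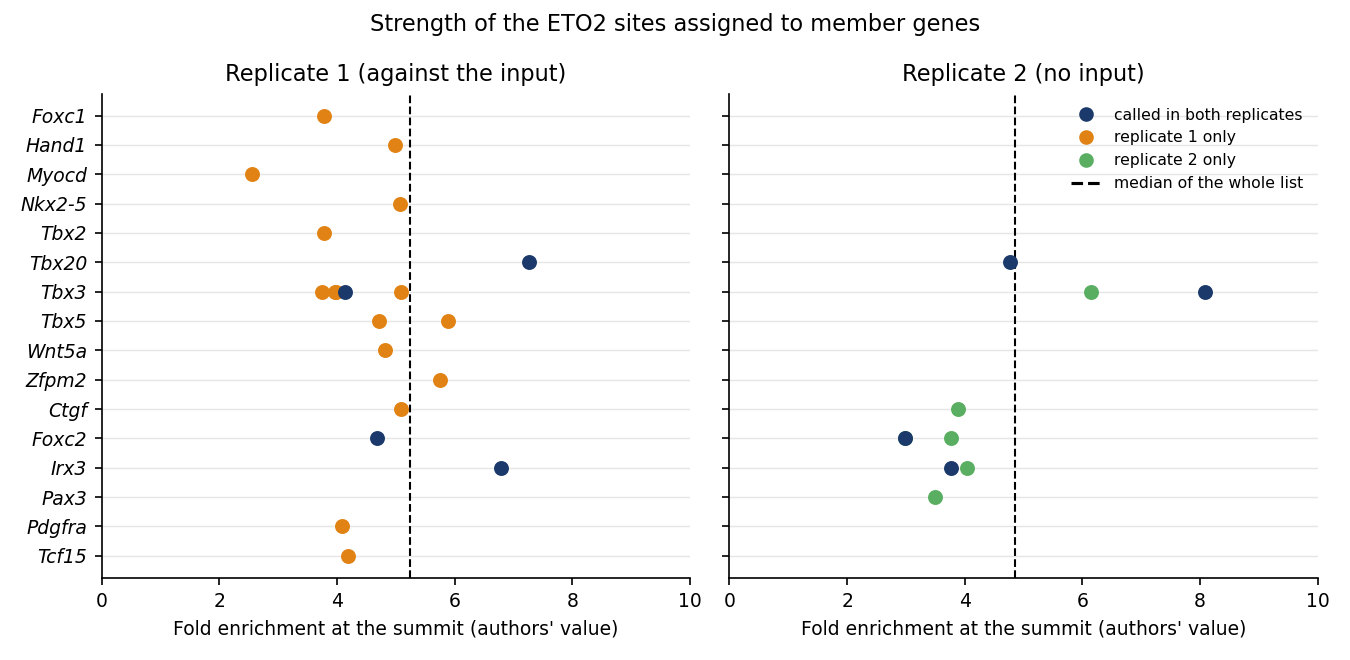
Fold enrichment at the summit (horizontal axis, a ratio without unit) of each member peak in replicate 1 (left) and replicate 2 (right), with 1 row per gene, coloured by the replicates in which the site was called. Only the leading peak of a site is drawn, and the shared Foxc2 peak at 2.98 hides the replicate-specific one at the same value in replicate 2. Most points lie left of the dashed list medians of 5.24 and 4.85.

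Member sites lay far from starts. Only those of Pdgfra and Foxc1, 2 of 26 (7.69%), were within 1 kb of a start, beside 10.4% of all sites. The median distance to the nearest start was 44.7 kb beside 25.8 kb, and 12 of 26 lay over 50 kb away (46.2%, beside 34.2%). By annotation 12 sites were intergenic, 13 in introns and 1 in a coding exon. No site was assigned to a pair of members.

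WGATAR was present in 12 of 26 member windows (46.2%, 28.8 to 64.5), beside 54.4% of the windows of all 3192 sites. In flanks of the same length 500 bp to each side it was present in 7.69% of member flanks and 17.2% of all flanks. The member sites were thus above their own flanks and had an interval that includes the share of all sites. The cardiac sites with WGATAR were those of Hand1, Myocd, Nkx2-5, Tbx2, Tbx20 and Zfpm2, with 1 each of the Tbx3 and Tbx5 sites, and the paraxial ones were both Ctgf and both Irx3 sites. CTG followed by 8 to 10 bases and GATA was present in 1 of 26 (3.85%, 0.682 to 18.9), beside 24% of all sites, a share that lies above the member interval. The spacing was itself chosen earlier on these data. CANNTG was present in 10 of 26 (38.5%, 22.4 to 57.5), beside 45.0%. A match describes these letters only, and does not show that a factor was bound.

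A further 56 genes of the same lineages, none of them members, were taken from a list set by textbook role. This list too was drawn up with earlier results of these data known, so it is no independent check on the members. Gata4 and Gata6, which the paper names among genes bound by ETO2, are in it and had a site. A site was present at 14 (25%, 15.5 to 37.7), beside 15.8% of genes of like territory. A site called in both replicates was present at 7 (12.5%, 6.19 to 23.6), beside 6.14% of genes of like territory and 5.1% of all genes. By lineage a site was present at 7 of 20 cardiac genes (35%, 18.1 to 56.7), beside 14.8% of genes of like territory. It was present at 5 of 20 paraxial genes (25%, 11.2 to 46.9), beside 18.2%, and at 2 of 16 primitive streak genes (12.5%, 3.50 to 36), beside 14.1%. The cardiac interval lies wholly above its territory value, and the paraxial and primitive streak intervals include theirs. Sites called in both replicates were present at 4 of these 20 cardiac genes (20%, 8.07 to 41.6), beside 5.66%. In the replicate 2 list 5 of the 20 cardiac genes had a site (25%, 11.2 to 46.9), beside 8.61%. Both intervals lie wholly above their territory values, whereas the paraxial and primitive streak intervals for these measures include theirs. No test was made of these differences. The highest replicate 1 fold enrichments among the 56 genes were at Rspo3 (9.67), Ryr2 (7.89) and Fgf10 (6.83). Of 35 blood and vessel genes, in contrast, 25 had a site (71.4%, 54.9 to 83.7) and 22 had one called in both replicates (62.9%, 46.3 to 76.8), beside 15.6% and 5.96% of genes of like territory. For sites called in both replicates that interval and the member interval of 4.41 to 25.3 do not overlap. Among genes with a replicate 1 site, the median of the highest fold enrichment per gene was 9.42 for blood and vessel genes and 4.99 for the members, and the highest blood and vessel values were at Gypc (29.5), Cbfa2t3 (27.7) and Zfpm1 (22.7).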

How the data were processed

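Per the study's methods, the authors aligned read pairs to mm9 with Bowtie, removed duplicates with SAMtools and called peaks with MACS2 2.0.10, replicate 1 against the input and replicate 2, by its file name, without one. The deposited lists give per peak the summit position, the summit's fold enrichment (a ratio) and its p-value and q-value as −log10, all calculated by the authors. A deposited list of the whole series, with positions only, was not used. The fragments at each summit and the local background were recovered by solving the fold enrichment and the Poisson p-value together, which succeeded for 100% of peaks to within 0.01 in −log10 p and was tested on simulated data. In the fold enrichment each fragment counted as 1.34 in replicate 1 and as 1 in replicate 2. The ratio adds 1 to the scaled fragments and 1 to the background. These counts, 12 or more in replicate 1 and 18 or more in replicate 2, set the depth behind a site.

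The members and lists were chosen with earlier results of these data known, so no test was made and shares are descriptions, with 95% Wilson or exact Poisson intervals that cover counting error only. Peaks overlapping by 1 bp or more made 1 site. Each peak was assigned by its own summit, so a shared site went to a gene if any of its summits qualified. The position, distance and sequence window given for a site are those of the replicate 1 summit where there was one. Genes and protein-coding starts came from GENCODE M1 on a reference of the same build, in which 1 of the listed blood genes is not protein coding and was not counted. The share for genes of like territory is the mean, over the genes of a list, of the share with a site in their class among 10 classes of territory length. Motifs were sought on both strands. All 36 genes are named. Sites called in both replicates, sites within 20 kb of a gene and the strongest site of each gene are given in full, and further genes are named as neighbours or as the 3 highest of a list. Alternatives were a stricter q-value or fold enrichment, unique sequence only, other assignment rules, windows and classes, and leaving out each replicate. Other starts (all transcripts, or RefSeq coding genes added) were chosen after seeing the data. Python 3.11.15 with numpy 2.4.6, scipy 1.17.1 and pandas 2.3.3 was used.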

Additional observations from a re-analysis of the deposited data

How the results depend on the processing

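Leaving out each replicate in turn gave 6 to 15 members with a site, 2 to 10 cardiac genes and 4 to 5 paraxial genes, the low values without replicate 1. With a single list, sites called in both replicates have no value. The share above genes of like territory, 24.3 percentage points with both lists, was then 4.31 to 25.2. At a fold enrichment of 5 or more, members with a site fell to 7, those with a shared site to 0, cardiac genes to 5, paraxial genes to 2 and the share above like territory to 6.91 points. The median fold enrichments became 5.75 and 7.11, by construction, and the WGATAR share 66.7%, beside 65.8% of all sites at that setting. Counting only sites in the gene or within 20 kb left 10 members, 1 with a shared site, and 3 paraxial genes. A window of 200 bp gave WGATAR in 65.4% of member windows and 70.9% of all. The ratio of site density to the genome stayed between 1.38 and 2.70 under all the settings, and primitive streak genes had 0 sites under each. Of all the values recomputed, 90 stayed within 1.5 times the count or within the interval reported and 15 did not. The share of members with a shared site, 11.1% beside 8.03% of genes of like territory, fell below that of such genes under 2 settings: 2.78% beside 3.38% for sites in the gene or within 20 kb, and 0% beside 4.71% at a fold enrichment of 5 or more. No paired analysis was possible because a single group has replicates. Depth limits the lists: a site below 12 fragments in replicate 1 or 18 in replicate 2 could not be called.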

Other observations

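Other letters of developmental factors were present at about the share of all sites. AGGAA, the core read by ETS factors, was in 42.3% of the 26 member windows (25.5 to 61.1) and 41.4% of all windows. AAGTG, the core read by NKX2 factors, was in 19.2% (8.51 to 37.9) and 18.0%, and GGTGTG, the T-box core, in 7.69% (2.14 to 24.1) and 6.14%. RATAGW, which is WGATAR read backwards and serves as a control of base composition, was in 3.85% of member windows and 14.0% of all.

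All member peaks lay in unique sequence, where at least 80% of the 24-base words of the window occur once in the genome. In the whole lists this held for 95.5% of replicate 1 peaks and 68.9% of replicate 2 peaks. The median GC content of the windows was 55% at member peaks and 51% over the list in replicate 1, and 57% and 50% in replicate 2.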
